A study of Mus musculus with 12 samples.

Results

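The interferon-inducible GTPases described here are 9 mouse genes: 5 guanylate-binding proteins (Gbp2, Gbp3, Gbp4, Gbp5 and Gbp7) and 4 immunity-related GTPases (Iigp1, Irgm1, Irgm2 and Igtp). They were taken by gene symbol from a deposited table of 13553 genes, and all 9 were present. The RNA came from macrophages grown over 7 days from bone marrow of wild-type male C57BL/6 mice in medium with murine M-CSF (10 ng/mL), which makes marrow precursors become macrophages. Pre-treatment with 20 ng/mL of interleukin 4 (IL4) lasted 24 h; naive cells had the medium without it, and their sample tags read PBS. After a wash all cells received either 1 µM all-trans retinoic acid (RA), the vitamin A metabolite that activates nuclear RA receptors, or DMSO as vehicle, for 6 h. The 4 groups, naive and IL4 cells with vehicle or with RA, hold 3 libraries each, numbered 2, 3 and 4. The labels do not say whether the replicates were separate animals or cultures, so p-values speak only of the spread among these libraries, which may be technical. The question put to the genes is whether RA changes their RNA, and whether it does so differently in naive and in IL4-treated macrophages.

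Guanylate-binding proteins and immunity-related GTPases are enzymes that bind and hydrolyse GTP and assemble on membranes. Macrophages make them in large amounts when interferon gamma, made by T and NK cells, activates the receptor-bound kinases Jak1 and Jak2. Signalling reaches the genes through the gamma-activated sequence (GAS) and the interferon-stimulated response element (ISRE), at which Irf1 and other interferon regulatory factors act. The proteins then coat vacuoles that hold parasites or bacteria, break them open and expose bacterial products to inflammasomes. IL4 signals mainly through Stat6 and is the standard cytokine for inducing the alternative activation state.

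The promoters are shown because such elements are the best known feature that these genes share outside their coding sequence. RefSeq (GRCm38.p6) promoter windows, 250 bases before to 50 after the annotated start, were matched for 7 of the 9 genes, without Gbp4 and Iigp1. The ISRE-like core GAAANNGAAA, searched on both strands, was present in 7 of these 7 windows. The same letters occur in 3.44% of all 32851 windows and in 4.13% of the 9643 tested genes that have one. Below, 60 bases around the match are written 5′ to 3′ on the strand of the gene, with the match in capitals; where the gene reads the other strand of the core, the capitals begin with TTTC.
Gbp2, chr3:142620579-142620638, plus strand: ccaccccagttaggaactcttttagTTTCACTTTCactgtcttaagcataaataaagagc
Gbp3, chr3:142559980-142560039, plus strand: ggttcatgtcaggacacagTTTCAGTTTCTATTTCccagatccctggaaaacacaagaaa
Gbp5, chr3:142496744-142496803, plus strand: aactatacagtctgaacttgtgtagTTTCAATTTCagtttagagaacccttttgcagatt
Gbp7, chr3:142530258-142530317, plus strand: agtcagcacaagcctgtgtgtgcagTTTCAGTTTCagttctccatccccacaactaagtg
Irgm1, chr11:48871410-48871469, minus strand: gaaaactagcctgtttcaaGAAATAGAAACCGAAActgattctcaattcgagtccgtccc
Irgm2, chr11:58214888-58214947, plus strand: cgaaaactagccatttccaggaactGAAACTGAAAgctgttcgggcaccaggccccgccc
Igtp, chr11:58199497-58199556, plus strand: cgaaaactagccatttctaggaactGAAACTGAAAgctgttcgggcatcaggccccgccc

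In Gbp3 and Irgm1 a pair of matches overlapped and together spelled the longer core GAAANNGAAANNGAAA, which 0.116% of all windows hold. The GAS-like letters TTCNNNGAA were found in 4 of the 7 windows, those of Gbp5, Gbp7, Irgm2 and Igtp, against 8.30% of all windows. The Irgm2 and Igtp windows had 184 of 270 aligned bases (68.1%) identical without gaps, at the best offset found (-30 bases). Their printed stretches were nearly identical. In both, the GAS-like letters lie in lower case just before the capitals, with the bases ct between. A match describes the letters and is not a measured binding site.

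**Figure D1:**
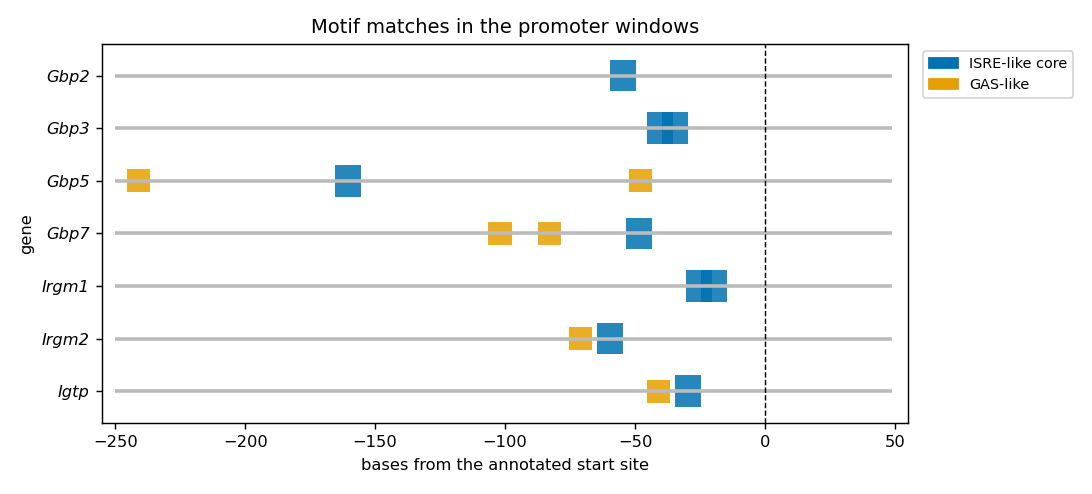
Position of the ISRE-like core (blue) and the GAS-like letters (orange) in the promoter windows of 7 GTPase genes, in bases from the annotated start site (dashed line). The ISRE-like matches begin between -64 and -24 in 6 of the genes and at -165 in Gbp5.

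All 9 genes passed the low-value filter (at least 1 CPM, the read count scaled to library size, in at least 3 libraries), as did 12116 genes in all. Read counts were not analysed here; the size of the smallest steps between low values gave an estimated effective depth of 31.1 to 48.0 M reads, lowest in the IL4 RA group (31.1 to 32.4). By that estimate a value rested on 128 reads at least (Gbp4) and 46700 at most (Gbp2), so counting error weighs most on Gbp4 and Iigp1. Some libraries stood apart for these genes. In naive vehicle, library 2 was the lowest of its group for 9 of 9 members, as it was for 35.7% of all tested genes, and in naive RA library 2 was lowest for 9 of 9, against 38.5%. In IL4 vehicle, library 4 was lowest for 9 of 9 (32.9% of tested genes) and library 2 highest for 8 of 9 (37.9%). Where leaving out one of these libraries changed a call or moved a difference much, the value or the count of calls without it is given. Of macrophage markers, 10 of 10 were present, with a summed level of 37200 to 41500 CPM in naive and 21500 to 24200 CPM in IL4 libraries. With IL4 in vehicle 7 of 10 were called lower, against 29.6% of tested genes. On the log2 scale these were Cd14 (-1.86), Aif1 (-1.45), Mertk (-1.16), Fcgr1 (-1.07), Adgre1 (-1.01), Lyz2 (-0.89) and Csf1r (-0.46). Lyz2 held most of the sum, and Cd68 (-0.04), Itgam (0.08) and C1qa (0.16) were not called. In bulk RNA, fewer cells of a type and less RNA per cell cannot be told apart.

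Which of the GTPases IL4 alone raised was asked first. All 9 were higher in IL4 vehicle than in naive vehicle, the guanylate-binding proteins by more than the Irgm genes: Gbp2 was 10.2-fold, Gbp4 7.28-fold, Gbp5 5.59-fold, Gbp3 5.29-fold, Gbp7 3.70-fold and Iigp1 3.72-fold higher. Irgm1 (1.94-fold), Igtp (1.87-fold) and Irgm2 (1.57-fold) changed least. The call (limma's moderated test with Benjamini-Hochberg adjustment over all tested genes, adjusted p under 0.05) was made for 9 of 9, against 30.5% of tested genes called higher. In 9 of 9 the 3 IL4 vehicle libraries lay above the 3 naive vehicle libraries without overlap, against 33.0% of tested genes. The median difference of the 9 was 1.89 on the log2 scale. Without IL4 vehicle library 4, or without naive vehicle library 2, 9 of 9 were still called; Gbp4 then differed by 3.36 and by 2.72, and Irgm2 by 0.76 and by 0.51.

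Gbp2, a lipid-anchored guanylate-binding protein that coats vacuoles of Toxoplasma and of bacteria (Entrez 14469, chromosome 3, 142620663 to 142638008, plus strand), stood at 99.4, 124 and 113 CPM in naive vehicle libraries 2, 3 and 4 and at 1266, 1216 and 955 CPM in IL4 vehicle. The lowest IL4 library was thus far above every naive library (difference 3.35 on the log2 scale, SE 0.11, n = 3 per group, limma adjusted p = 3.71e-11). Gbp3 (chromosome 3, 142560016 to 142573213) read 41.9, 58.6 and 50.2 CPM in naive vehicle and 292, 287 and 217 CPM in IL4 vehicle. The difference was 2.40 (SE 0.17, adjusted p = 5.36e-08). Gbp5, another lipid-anchored member, known for its part in NLRP3 inflammasome assembly (chromosome 3, 142496934 to 142522344), read 29.0, 32.3 and 33.7 CPM in naive vehicle and 206, 191 and 141 CPM in IL4 vehicle. Its naive libraries were close together and its IL4 libraries were not, with library 4 apart from the other two (2.48, SE 0.14, adjusted p = 3.76e-09).

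Gbp7, linked in mouse macrophages to assembly of the phagocyte NADPH oxidase (chromosome 3, 142530336 to 142550151), read 29.6, 40.6 and 37.8 CPM in naive vehicle and 155, 131 and 113 CPM in IL4 vehicle (1.89, SE 0.17, adjusted p = 5.88e-07). Of its sequence, 10.2% of the 101-base stretches also occur in other genes, mostly in Gm43802 and fewer in Gbp3, so a small part of its reads may be shared. These 4 genes are neighbours on chromosome 3 within 141 kb. Gbp4, which belongs to the guanylate-binding protein group of chromosome 5 (105115767 to 105139586, minus strand), was the scarcest member. It read 3.94, 6.70 and 4.20 CPM in naive vehicle and 47.9, 50.9 and 17.5 CPM in IL4 vehicle. Libraries 2 and 3 were nearly equal and library 4 was far lower, yet still above every naive library (2.86, SE 0.33, adjusted p = 6.59e-06).

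Among the immunity-related GTPases, Iigp1 is an effector that loads onto vacuoles and tears them, while Irgm1, Irgm2 and Igtp (also known as Irgm3) are regulators that sit on the cell's own membranes and hold the effectors inactive there. Iigp1 (Entrez 60440, chromosome 18, 60373616 to 60392634) read 10.1, 15.2 and 12.3 CPM in naive vehicle and 60.5, 55.4 and 29.2 CPM in IL4 vehicle (1.89, SE 0.28, adjusted p = 5.63e-05). Its IL4 vehicle library 4 differed from the mean of libraries 2 and 3 by -0.99 on the log2 scale, and that of Gbp4 by -1.50, the largest such gaps among the 9 genes in that group.

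The regulators started high and rose less. Irgm1 (chromosome 11, 48865245 to 48871420, minus strand) read 164, 230 and 200 CPM in naive vehicle and 432, 375 and 337 CPM in IL4 vehicle (0.95, SE 0.16, adjusted p = 0.000163). Irgm2 (chromosome 11, 58214977 to 58222783) read 82.9, 113 and 106 CPM, then 184, 156 and 133 CPM (0.65, SE 0.16, adjusted p = 0.00414). Igtp, which ends 7385 bases before Irgm2 starts (chromosome 11, 58199556 to 58207592), read 56.7, 78.9 and 67.9 CPM, then 152, 128 and 102 CPM (0.90, SE 0.18, adjusted p = 0.000778). Of the 101-base stretches of Igtp 5.57% also occur in Irgm2, and of those of Irgm2 2.42% in Igtp. In all 3 the order of the IL4 vehicle libraries was 2, then 3, then 4, and none of them fell below the highest naive library.

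**Figure D2:**
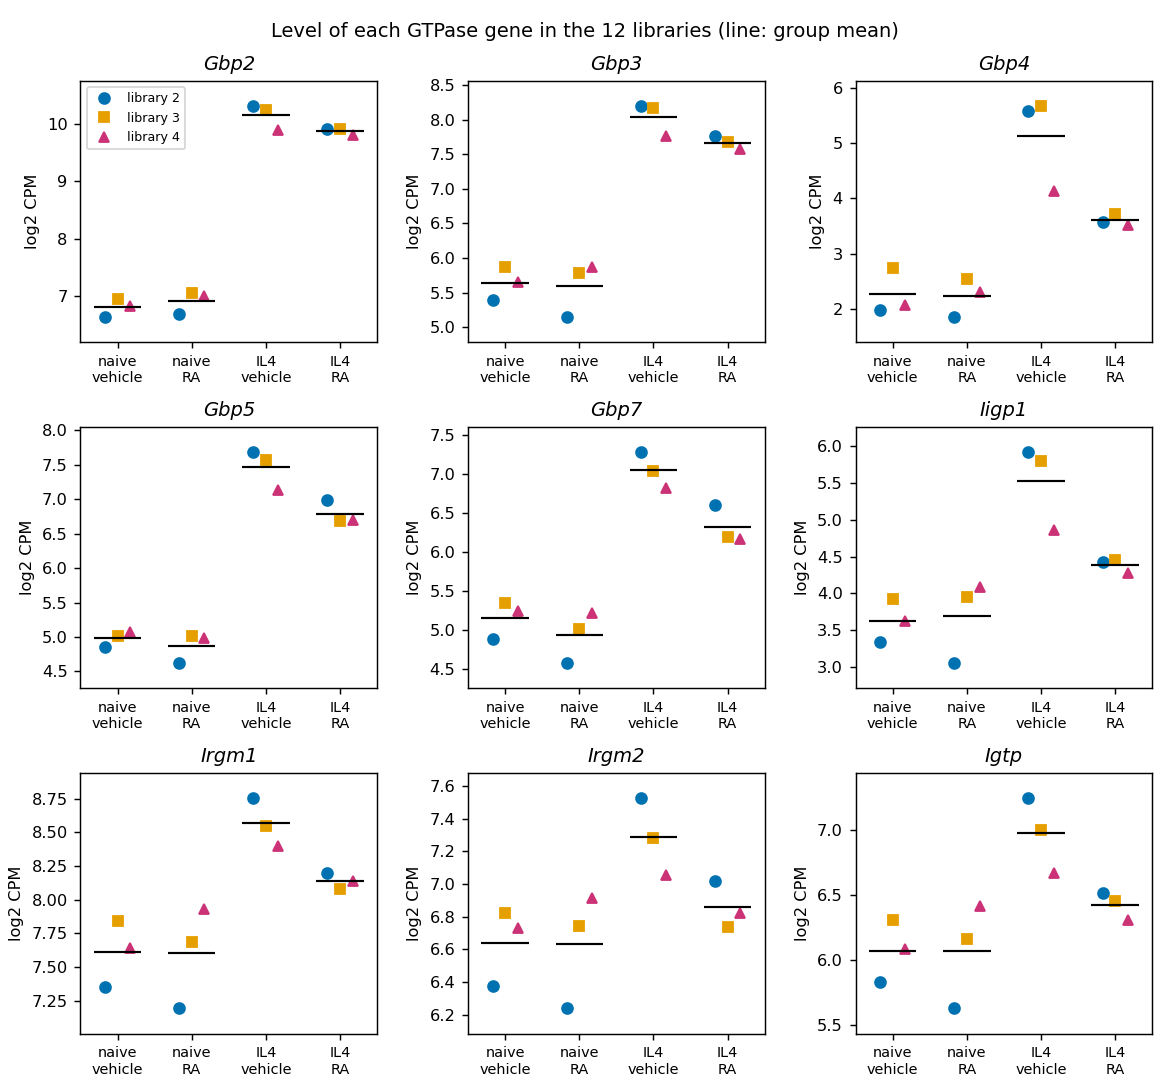
Level (log2 CPM, a separate scale in each panel) of the 9 GTPase genes in the 12 libraries; points are single libraries, coloured by their number, and lines are group means (n = 3). All IL4 vehicle points lie above the naive points, library 4 is the lowest IL4 vehicle point in all 9 panels, and the IL4 RA points lie between the IL4 vehicle mean and the naive groups in Gbp2, Gbp3, Gbp4, Gbp5, Gbp7, Iigp1 and Irgm1.

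Levels per length of the longest coding transcript allow the genes to be compared with each other. In naive vehicle the order, in CPM per kb, was Irgm1 (87.5 ± 14.7, SD, n = 3), Gbp2 (44.6 ± 4.88), Igtp (33.6 ± 5.48), Irgm2 (28.5 ± 4.46), Gbp3 (18.7 ± 3.12), Gbp5 (10.4 ± 0.794), Gbp7 (6.41 ± 1.02), Iigp1 (4.03 ± 0.819) and Gbp4 (1.09 ± 0.336). Igtp and Irgm2 differed by less than the SD of Igtp. In IL4 vehicle Gbp2 led with 455 ± 66.4 CPM per kb, followed by Irgm1 (169 ± 21.2), Gbp3 (99.0 ± 15.8), Igtp (62.9 ± 12.4) and Gbp5 (58.6 ± 11.2), of which Igtp and Gbp5 did not differ beyond their spread. Below them were Irgm2 (44.7 ± 7.33), Gbp7 (23.7 ± 3.78), Iigp1 (15.5 ± 5.38) and Gbp4 (8.54 ± 4.07). Gbp2 thus passed Irgm1, and Gbp3 and Gbp5 passed Irgm2, when IL4 was present. In IL4 RA the order at the top was the same, with Gbp2 at 373 ± 15.7, Irgm1 at 125 ± 4.92 and Gbp3 at 75.9 ± 5.02 CPM per kb. There Gbp5 (36.4 ± 4.45) and Irgm2 (33.0 ± 3.37) did not differ beyond their spread.

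Whether RA then changed this state was the next question. In IL4-treated cells RA lowered Gbp4, Iigp1, Gbp7 and Gbp5, and the other 5 genes had lower means that did not pass the threshold. Gbp4 fell 2.88-fold, Iigp1 2.21-fold, Gbp7 1.65-fold and Gbp5 1.596-fold. The count of 4 of 9 called lower stood against 5.18% of tested genes. All 9 differences were negative, as were 49.1% of those of all tested genes, and all 9 had an unadjusted p under 0.05, against 25.5% of tested genes. The median difference of the 9 was -0.55 on the log2 scale.

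Gbp4 read 11.9, 13.1 and 11.4 CPM in IL4 RA libraries 2, 3 and 4. These 3 values were close together and all lay below the lowest IL4 vehicle value of 17.5 CPM (difference -1.53 on the log2 scale, SE 0.33, limma adjusted p = 0.00914). Iigp1 read 21.5, 21.8 and 19.3 CPM, below its lowest IL4 vehicle value of 29.2 CPM (-1.14, SE 0.28, adjusted p = 0.0169). Gbp5 read 127, 103 and 104 CPM, and its nearest IL4 vehicle value was 141 CPM (-0.67, SE 0.14, adjusted p = 0.0058). Gbp7 read 97.3, 72.86 and 72.05 CPM (-0.72, SE 0.17, adjusted p = 0.0146). For these 4 genes no IL4 RA library reached the IL4 vehicle group, and library 2 was the highest IL4 RA library for Gbp5 and Gbp7 but not for Gbp4 and Iigp1.

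The regulators were lower by smaller and nearly equal amounts. Igtp read 91.6, 87.4 and 79.0 CPM in IL4 RA (-0.55, SE 0.18, adjusted p = 0.0707). Irgm1 read 293, 271 and 281 CPM (-0.43, SE 0.16, adjusted p = 0.105), and Irgm2 130, 106 and 113 CPM (-0.43, SE 0.16, adjusted p = 0.119). None of the 3 passed, although none of their IL4 RA libraries reached the IL4 vehicle range. Gbp3 (217, 204 and 190 CPM; -0.37, SE 0.17, adjusted p = 0.196) and Gbp2 (966, 957 and 894 CPM; -0.28, SE 0.11, adjusted p = 0.143) were the members with the smallest differences. Both overlapped with IL4 vehicle, through library 4 of that group, although each was lower with RA in every same-numbered pair of libraries. The groups did not overlap in 7 of 9 members, against 13.5% of tested genes that lay lower without overlap.

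**Figure D3:**
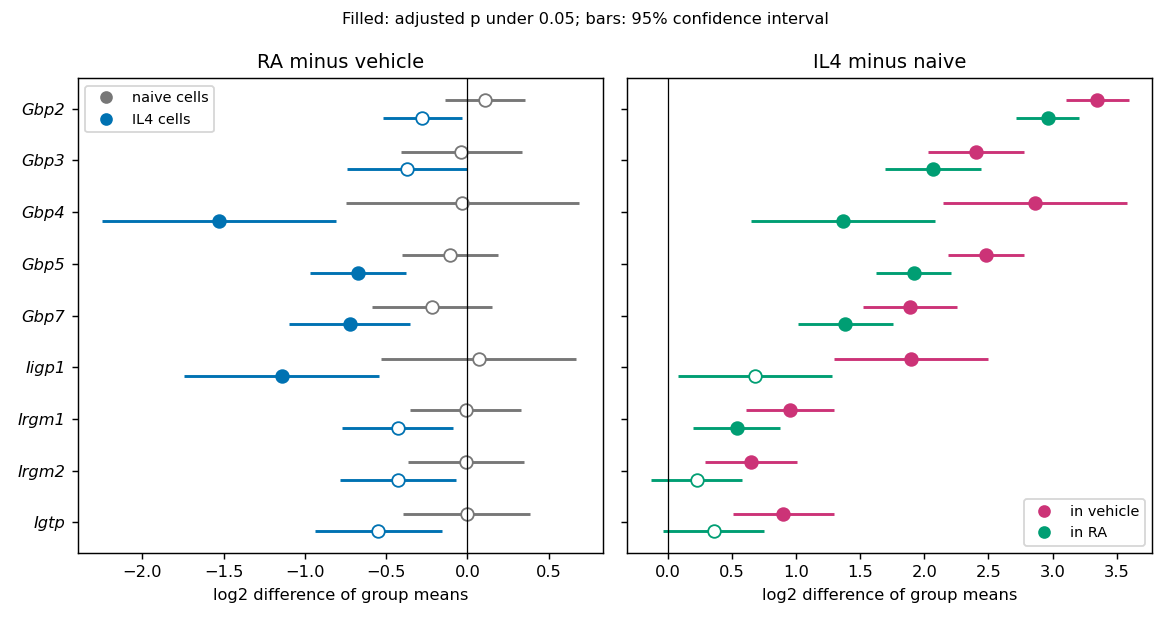
Difference of group means (log2, horizontal axis) of each GTPase gene with its 95% confidence interval; left, RA minus vehicle in naive (grey) and IL4 (blue) cells; right, IL4 minus naive in vehicle (magenta) and RA (green). Filled points have a limma adjusted p under 0.05: the RA differences of Gbp4, Gbp5, Gbp7 and Iigp1 in IL4 cells, all 9 IL4 differences in vehicle, and 6 of them in RA.

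The size of the fall depended on which libraries were in the group. Without IL4 vehicle library 4 the Gbp4 difference was -2.03 (adjusted p = 8.8e-05) and 6 of 9 members were called, Gbp2 and Igtp being added. Without IL4 vehicle library 2, or without IL4 RA library 4, the count fell to 2, Gbp4 and Gbp5. Without that IL4 vehicle library Gbp7 differed by -0.61 (adjusted p = 0.0647) and Iigp1 by -0.95 (adjusted p = 0.0737). Leaving out IL4 vehicle library 3 lost Iigp1 (adjusted p = 0.0721) and leaving out IL4 RA library 3 lost Gbp7 (adjusted p = 0.0666). Gbp4 and Gbp5 remained called whichever single library was left out, with differences of -2.03 to -1.26 and of -0.84 to -0.56. Without naive RA library 2, which enters only through the shared estimate of the spread, the count was 7. Irgm1, Irgm2 and Igtp were then added (adjusted p = 0.0253, 0.0419 and 0.0195). With only the 2 IL4 groups in the fit the count was 8, all but Gbp2. Without naive RA library 4 Igtp was added (adjusted p = 0.0452).

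In naive cells RA called none of the 9 (0 of 9, against 6.26% of tested genes called either way), and 0 of 9 had an unadjusted p under 0.05, as 19.9% of tested genes had. The differences ran from -0.22 (Gbp7, SE 0.17, adjusted p = 0.535) to 0.11 (Gbp2, SE 0.11, adjusted p = 0.656), with a median of -0.01. The groups overlapped for every member, while 28.0% of tested genes did not overlap. Naive RA libraries 2, 3 and 4 held 103, 133 and 128 CPM of Gbp2, which is close to the naive vehicle values. They held 35.5, 55.2 and 58.2 CPM of Gbp3, and 3.61, 5.82 and 4.96 CPM of Gbp4. In each, library 2 was the low one.

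The same was seen in the other members. Gbp5 read 24.7, 32.4 and 31.6 CPM and Gbp7 24.0, 32.4 and 37.2 CPM in naive RA. Iigp1 read 8.35, 15.5 and 16.98 CPM, and library 2 was the lowest of all 12 libraries. Irgm1 read 146, 206 and 244 CPM, Irgm2 75.5, 107 and 121 CPM, and Igtp 49.4, 71.5 and 85.2 CPM. The precision in naive cells was limited: the 95% interval of the RA difference reached from -0.75 to 0.69 for Gbp4 and from -0.53 to 0.67 for Iigp1. It reached from -0.35 to 0.33 for Irgm1 and from -0.14 to 0.35 for Gbp2.

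The difference between both RA effects was itself tested. The interaction was negative for 9 of 9 members, as for 47.5% of tested genes, with a median of -0.51 on the log2 scale. None passed the adjustment (limma, 0 of 9, against 0.380% of tested genes, 46 in number), and 4 of 9 had an unadjusted p under 0.05, against 8.30% of tested genes. These were Gbp4 (-1.50, SE 0.47, adjusted p = 0.347), Iigp1 (-1.21, SE 0.39, adjusted p = 0.36), Gbp5 (-0.57, SE 0.19, adjusted p = 0.408) and Gbp2 (-0.39, SE 0.16, adjusted p = 0.541). The RA effect was therefore not shown to differ between naive and IL4 cells for any member with all 12 libraries. Without IL4 vehicle library 4 the Gbp4 interaction was -2.00 and was called (adjusted p = 0.016).

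IL4 also raised most of the genes when RA was present. Between IL4 RA and naive RA 6 of 9 were called higher, against 29.0% of tested genes, and 7 of 9 lay higher without overlap, against 31.5%. Gbp2 was 7.79-fold, Gbp3 4.19-fold, Gbp5 3.77-fold, Gbp7 2.61-fold, Gbp4 2.58-fold and Irgm1 1.45-fold higher. Iigp1 (0.68 on the log2 scale, SE 0.28, adjusted p = 0.0524), Igtp (0.36, SE 0.18, adjusted p = 0.113) and Irgm2 (0.22, SE 0.16, adjusted p = 0.267) were not called. Without naive RA library 2 the same 6 were called, but the immunity-related GTPases differed less: Iigp1 by 0.36, Irgm1 by 0.33, Igtp by 0.14 and Irgm2 by 0.03. Without naive RA library 4 the count was 8, Iigp1 (0.87) and Igtp (0.53) being added. Iigp1 was also called when library 3 of either naive group was left out (adjusted p = 0.0497 in vehicle and 0.049 in RA), or library 2 or 4 of IL4 vehicle (adjusted p = 0.0464 and 0.0189). The RA comparison in IL4 cells shares its libraries with both IL4 comparisons, so these values are set side by side and not compared further.

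Within a group most of the 9 genes deviated in the same direction in the libraries named above. The mean deviation of the 9 from the group mean was -0.24 (log2) in naive vehicle library 2, -0.40 in naive RA library 2 and -0.38 in IL4 vehicle library 4. The highest were 0.26 in IL4 vehicle library 2 and 0.24 in naive RA library 4. IL4 RA was the most even group for them, with deviations from -0.08 to 0.10. In its library 2 every member but Gbp4 (-0.05) lay above the mean of the other two libraries, Gbp7 the most (0.43). Library 3 had members on both sides, with Gbp4 at 0.17 and Gbp7 at -0.20. In library 4 every member lay below the mean of the other two, with a median of -0.14. Library 2 was the highest for 7 of 9 members, against 37.5% of tested genes. The median SD of the members was 0.24 in naive vehicle, 0.35 in naive RA, 0.24 in IL4 vehicle and 0.10 in IL4 RA, against 0.070, 0.069, 0.076 and 0.084 over all tested genes.

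Gbp4 and Iigp1 varied most in IL4 vehicle, with SDs of 0.86 and 0.57 on the log2 scale, which 0.305% and 0.933% of tested genes exceeded in that group. Gbp5 was the steadiest member in naive vehicle (SD 0.11) and Irgm1 in IL4 RA (SD 0.057). The median difference of the 9 members in library 2 from the other two was -0.39 (log2) in naive vehicle and -0.59 in naive RA, and in library 4 of IL4 vehicle it was -0.42. Over all tested genes such medians are held near 0 by the TMM scaling and give no comparison.

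**Figure D4:**
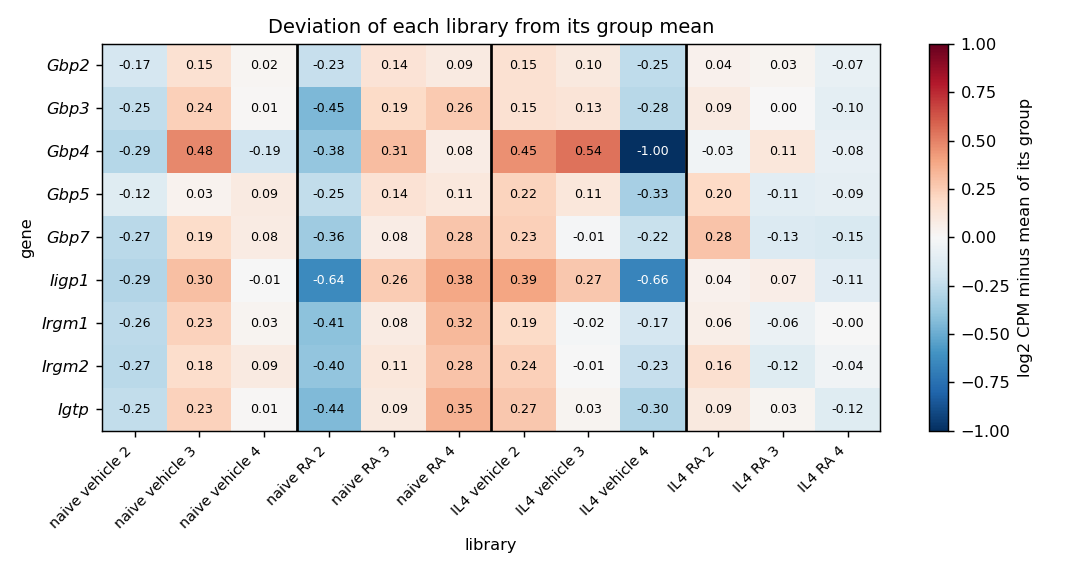
Log2 CPM of each GTPase gene (rows) in each library (columns) minus the mean of its group, in numbers and colour; vertical lines separate the 4 groups. Naive vehicle 2, naive RA 2 and IL4 vehicle 4 are negative for all 9 genes, most of all Gbp4 in IL4 vehicle 4, and IL4 RA holds the smallest deviations.

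Further GTPase genes of this kind (other guanylate-binding proteins and immunity-related GTPases, Mx and very large inducible GTPases) were read from a list of 30, of which 21 were tested. Counts for this and the following lists can be read against the shares over all tested genes: with IL4 in vehicle 30.5% were called higher, 29.6% lower and 60.1% either way, and with RA in IL4 cells 5.18% lower and 6.50% higher. In IL4 vehicle 18 of 21 rose, led by Gbp2b (5.82 on the log2 scale), Tgtp1 (4.10), Gbp11 (3.14), the antiviral GTPase gene Mx1 (2.10), Tgtp2 (1.72) and Ifi47 (1.52), and Irgq fell by 0.24. Tgtp1 and Tgtp2 are near-identical copies, so the split of reads between them is uncertain, and the naive level of Gbp2b (-2.20 to -1.28 log2 CPM) was low enough to make its fold inexact. With RA in IL4 cells Gbp8 (-0.62, limma adjusted p = 0.0333) and Gbp9 (-0.57, adjusted p = 0.0205) fell, 0 rose, and 19 of 21 differences were negative, with a median of -0.54. Gbp2b, the member most raised by IL4, was among the exceptions, at 0.26 (adjusted p = 0.46). In naive cells 0 of 21 were called with RA, with 0 of 21 for the interaction, and in RA 14 rose with IL4 and Gbp9 fell.

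Genes upstream of the GTPases were grouped by role. Of the ligand list, 4 of 15 genes were tested, and Ifng and Ifnb1 were not analysed here. IL4 raised Il12b (2.77), Il27 (2.02) and Il15 (0.94), and RA in IL4 cells lowered Il15, by 0.53 (adjusted p = 0.0354). Of 7 receptor and kinase genes, the receptor chain gene Ifngr1 fell by 0.69 with IL4 and with RA in IL4 cells stood 0.23 higher (adjusted p = 0.000993). Jak2, the kinase bound to the other receptor chain, went the other way: it rose by 1.39 with IL4 and fell by 0.46 with RA in IL4 cells (adjusted p = 0.000518) and by 0.25 in naive cells (adjusted p = 0.0416). Tyk2 rose with IL4 by 0.27, Ifngr2, Ifnar1 and Ifnar2 fell by 0.14 to 0.20, and Jak1 was not called in any comparison.

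Of 17 STAT, IRF and BATF factor genes, 10 rose and 2 fell with IL4 in vehicle, against 60.1% of tested genes called either way. Irf1, a factor that acts at ISREs, rose by 1.67 and fell by 0.47 with RA in IL4 cells (adjusted p = 0.0066), where its libraries read 8.127, 8.003 and 8.019 log2 CPM against 8.741, 8.503 and 8.317. In naive cells RA left Irf1 at 0.10 (adjusted p = 0.65). Irf4 (3.11), Batf3 (2.33), Batf2 (1.76) and Stat5a (1.24) were the other large increases with IL4. RA in IL4 cells also lowered Irf2 by 0.18 and Stat3 by 0.16, and raised Batf3 by 0.62 and Irf8 by 0.17. In naive cells RA raised Irf8 (0.31, adjusted p = 0.000844) and Irf5 (0.23), and none of the 17 was called for the interaction.

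Of 16 genes for negative regulators, 5 rose and 4 fell with IL4, which is near the share of all tested genes. Socs1, the inhibitor of Jak kinases that interferon gamma itself induces, rose by 2.21 and fell by 0.81 with RA in IL4 cells (adjusted p = 0.00895). Socs2 rose with IL4 (3.51), with RA in naive cells (1.17) and with RA in IL4 cells (0.56). Of Usp18 (1.65), Socs3 (0.51) and Ptpn2 (0.43), which rose with IL4, none was called with RA, and Nr1h3, Pias3, Trim24 and Pias2 fell with IL4 by 0.24 to 0.71.

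Targets of interferon outside the member genes gave a point of reference. Most are no GTPases, but the type I list includes the GTPase genes Mx1 and Mx2, which were also read above. Of 23 interferon-gamma targets 21 rose with IL4 in vehicle, led by the nitric oxide synthase gene Nos2 (4.60), the chemokine gene Cxcl9 (4.01), Serpina3g (3.75) and the costimulatory receptor gene Cd40 (3.47), and the Fc receptor gene Fcgr1 fell by 1.07. RA in IL4 cells lowered 6 of 23: Cxcl9 (-1.65), Nos2 (-1.24), Socs1, Cd40 (-0.52), Irf1 and the peptide transporter gene Tap2 (-0.27), and the median was -0.24. The antigen presentation genes H2-Aa (0.07), H2-Ab1 (0.08), H2-Eb1 (0.11) and Cd74 (0.18) and their activator Ciita (-0.13) had risen with IL4 and were not called with RA. Of 28 type I interferon targets 22 rose with IL4 and Ifitm3 fell. With RA in IL4 cells the sensor gene Ifih1 fell by 0.49 (adjusted p = 0.0375). It was the only 1 of 28 called, a share near the background of 5.18%. Of the differences 27 of 28 were negative, against 49.1% of tested genes, and the median was -0.40. Genes of this kind can deviate together within a library, so such signs are not separate observations. In naive cells the RA differences were mostly positive, in 22 of 28 type I targets and 19 of 23 interferon-gamma targets. None of either list was called in naive cells or for the interaction. Some genes, such as Socs1, Irf1 and Mx1, stand on more than 1 list.

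Of the partners of the GTPases at vacuoles (ATG8 conjugation genes, ubiquitin ligases and adaptors), 10 of 19 rose and 4 fell with IL4, again against 60.1% of tested genes. With RA in IL4 cells the ubiquitin ligase gene Trim21 fell by 0.39 (adjusted p = 0.0162) and the damage sensor gene Lgals8 by 0.32 (adjusted p = 0.00127), 0 rose, and the median was -0.03. In naive cells 0 of 19 were called with RA. Of 15 inflammasome genes, 7 rose with IL4, among them Zbp1 (1.27), Ripk3 (1.23), Aim2 (0.96), the pore gene Gsdmd (0.83), Casp1 (0.68) and Casp4 (0.43), and Il1b (-1.28), Nlrc4 (-0.53) and Nek7 (-0.39) fell. RA in IL4 cells lowered 5 of 15, against the same 5.18% of tested genes: Casp1 by 0.37 (adjusted p = 0.000706), Casp4 by 0.37 (adjusted p = 0.00848), Gsdmd by 0.27, Aim2 by 0.25 and Nek7 by 0.15. In naive cells Casp1 and Nek7 fell by 0.22 each and Ninj1 rose by 0.35.

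The genes whose profile over the 12 libraries lay closest to the mean profile of the 9 members were sought by root mean square distance of centred log2 values. They were Cdkn1a (0.13), Socs1 (0.15), Il15ra (0.16), Mx1 (0.17), Cxcl10 (0.17) and Il27 (0.18). A flat gene would lie at 0.87, and the members themselves ran from 0.12 (Gbp7) to 0.80 (Gbp2). Il15ra, a receptor chain for interleukin 15, rose by 1.86 with IL4 and was 0.71 lower with RA in IL4 cells. When the group means were taken out, so that only the deviations of single libraries remained, the nearest genes were Herc6 (0.05), Il18 (0.06), Oas1b (0.06), Mndal (0.07), Tap1 (0.07) and Oas1g (0.07), against 0.22 for a flat gene. Among the members this distance ran from 0.05 (Gbp3) to 0.26 (Gbp4), so Gbp4 lay farther from the mean of the 9 than a flat gene. Herc6, Oas1b, Mndal, Tap1 and Oas1g are known interferon-induced genes. Il18 was not raised by IL4 in vehicle (-0.33, adjusted p = 0.118). It read 2.31, 2.19 and 1.63 log2 CPM in IL4 vehicle libraries 2, 3 and 4, a course that its choice by this distance entails.

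Markers of other cells were read beside these results. Of 17 T and NK cell markers 3 were analysed (Cd4, Cd247 and Klrb1c), and their summed level was 16.3 to 19.6 CPM in naive and 4.76 to 6.34 CPM in IL4 libraries. That sum was mostly Cd4, which fell by 2.29 with IL4. The other two were near or below 1 CPM and moved the other way: Cd247 rose by 0.88 (adjusted p = 0.00248), and Klrb1c, too low to be tested, went from a mean of -1.55 to -0.17 log2 CPM. With RA in IL4 cells the mean of Klrb1c was lower, at -0.54 log2 CPM, while Cd247 (0.12 on the log2 scale) and Cd4 (-0.02) were not called. The part of these 3 markers in the IL4 and RA differences was not tested. Within IL4 vehicle, Klrb1c was highest in library 2, Cd247 in library 3 and Cd4 in library 4. Of dendritic cell markers 5 of 7 were analysed, and their sum moved with IL4, from 37.1 to 47.5 CPM in naive to 1700 to 2010 CPM in IL4 libraries, mostly through the integrin gene Itgax, which rose by 5.60. All 4 that were tested were called higher with IL4 in vehicle, Ccr7 by 4.02, Zbtb46 by 3.555 and Clec9a by 1.92. Within IL4 vehicle the sum, mostly Itgax, was 1700, 1910 and 1760 CPM in libraries 2, 3 and 4. Of the single markers there, Itgax and Ccr7 were lowest in library 2. Clec9a, Zbtb46 and Xcr1, the last too low to be tested, were lowest in library 4. The part of these markers in the IL4 differences was not tested. Neutrophil markers (4 of 10) summed to 161 to 172 CPM in naive and 102 to 117 CPM in IL4 libraries. Csf3r, which fell by 0.61 with IL4, held most of that sum, while the far scarcer S100a8 and Cxcr2 rose by 1.15 and 0.58. For stromal and endothelial markers (8 of 8) the sums were 63.6 to 74.5 and 34.1 to 52.7 CPM, and none of 5 B cell markers was analysed.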

How the data were processed

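Single-end stranded poly(A) libraries (TruSeq, 101 cycles) of 12 samples were deposited by the authors as 1 table of log2 CPM, scaled with TMM factors per the name of the table. Its libraries share 1 lowest value (-3.675 log2 CPM), as a small added prior gives. Per the submitters' processing notes the tools were bcl2fastq 2.20, Salmon 0.13.1 and edgeR 3.32.1, with build GRCm38. These deposited log2 values went into the model unchanged; CPM given here are the same values off the log scale. The filter kept 12116 genes that reached 1 CPM in 3 or more libraries and left out 1437. Group means of the 12 libraries were fitted with limma 3.58.1 in R 4.3.3, with an intensity trend. Two-sided p-values were adjusted over all tested genes of a contrast (Benjamini-Hochberg), and an adjusted p under 0.05 is a call. Intervals are 95%. The model was checked on simulated data. All 9 members are named in each contrast; of other lists, up to 6 called genes each, regulators, and the 6 nearest genes by each of both distances. The members and lists were chosen with earlier results of these data known. A further gene of these lists is not reported here and was left out of their counts. Positions and promoters are from RefSeq (GRCm38.p6), transcripts and strands from GENCODE vM21. Depth is an estimate, from the spacing of low values. Alternatives were another filter or none, a pseudocount of 1 CPM, quantile normalization, median centring, only the groups compared, no trend, library weights, the replicate block, and each library left out; leaving out all libraries numbered 4 was added after seeing the data. Same-numbered libraries deviated together with correlations of 0.245, 0.193 and 0.128 between the IL4 groups. Between the vehicle groups these were 0.14, 0.209 and 0.182. Such values may reflect a pairing by number, but differently numbered libraries were not compared and the labels state no pairing. The main model held no pairing, so the SEs and p-values under Results are unpaired, and the replicate block was an alternative. Between the naive groups (0.51, 0.277 and 0.0706) and the RA groups (0.0895, 0.186 and 0.126) 1 value each lay below 0.1.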

Additional observations from a re-analysis of the deposited data

How the results depend on the processing

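The number of members called with RA in IL4 cells was 4 and moved most. It was 8 with only the 2 IL4 groups in the fit, 4 with the replicate block, and 2 to 7 with each library left out. With library weights Igtp was added (adjusted p = 0.0333). The number with IL4 in RA was 6, and 6 to 8 with each library left out. It was 7, with Iigp1 added, with the replicate block (adjusted p = 0.0406) and with only the 2 groups compared (adjusted p = 0.0269). The interaction had 0 and 0 to 1, while IL4 in vehicle had 9 and RA in naive cells 0 under each of these alternatives. The replicate block changed no other count of members. Without all libraries numbered 4, RA in IL4 cells called 3 (Gbp7 lost, adjusted p = 0.0829) and IL4 in RA 8. The direction reversed for RA differences near 0 in naive cells, none of them called. With quantile normalization Irgm2 was 0.0058, and with library weights Gbp3 was 0.055, Gbp4 0.17, Irgm1 0.054, Irgm2 0.029 and Igtp 0.071. Without all libraries numbered 4, Iigp1 was -0.13. With each library left out Gbp3 ran from -0.17 to 0.19, Gbp4 from -0.18 to 0.21, Gbp5 from -0.18 to 0.017, Iigp1 from -0.12 to 0.39, Irgm1 from -0.17 to 0.19, Irgm2 from -0.15 to 0.19 and Igtp from -0.18 to 0.22. The causes were not tested. With 3 libraries a group, Gbp4 and Iigp1 carry the widest intervals.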
